A study of Mus musculus with 9 samples.

Results

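The keratin, actin and tubulin cytoskeleton was followed through 10 genes in mouse liver RNA-seq: Krt8, Krt18, Vim, Actb, Actg1, Tpm4, Tubb2a, Tubb6, Tuba1c and Tubb4b. They were taken by gene symbol from the 54532 genes of the table, and all 10 were among the 9699 genes tested, whose mean over the libraries reached 1 FPKM. FPKM, the fragments counted per kilobase of gene and scaled by the size of the library, is a level per unit of gene length. The livers came from male C57BL/6 mice, 5 to 7 weeks old by the study's methods. The NC group (replicates 1, 2 and 3) was labelled control. The APAP group (replicates 1, 2 and 3) had received 500 mg/kg acetaminophen (APAP) by intraperitoneal injection after an overnight fast, and the liver was taken at 6 h. The AMSC group (replicates 2, 3 and 4) had received the same dose, and adipose-derived mesenchymal stem cells by tail vein directly afterwards, and was also taken at 6 h. The stem cells were grown from inguinal fat of C57BL/6 mice, so their transcripts cannot be told apart from those of the host. Whether the NC mice were fasted or received a vehicle injection was not stated separately. The comparisons ask which of these genes differed after APAP, and which differed when the stem cells were given with it.

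Intermediate filaments, actin filaments and microtubules are the 3 filament systems of the cell. Hepatocytes build their intermediate filaments from the keratin pair K8 and K18, which assemble together, and mesenchymal cells build theirs from vimentin. Cytoplasmic beta- and gamma-actin form the cortical filaments that tropomyosin coats and myosin pulls on, and alpha- and beta-tubulin pair into the dimers that make microtubules. APAP overdose is known for centrilobular hepatocyte death through a reactive metabolite made by CYP2E1.

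Transcript reads recovered from the FPKM steps numbered 13418921 to 16210930 per library, and single members were covered by 143 reads (Vim) to 28111 reads (Krt8). Hepatocyte markers were high in every library, as the liver label requires. They summed to 44010 to 47437 FPKM in NC, 59883 to 68406 FPKM in APAP and 55977 to 58099 FPKM in AMSC, without overlap. The part of this difference in the member levels was not tested. APAP replicate 1 stood apart for these genes. Its Krt8 level was 0.258 of the mean of the other 2 APAP libraries, and its median absolute log2 difference from them over all genes tested, 0.224, was the largest of the 9 libraries, which otherwise ranged from 0.125 to 0.205. It also held more Cyp2e1 (1541 FPKM) than APAP replicates 2 (294 FPKM) and 3 (705 FPKM), against 3247 to 3605 FPKM in NC. Results that rest on this library are given with and without it. A gene is said to have risen or fallen where the adjusted p from limma was at most 0.05 and the log2 fold change was at least 1 in size, on the scale of log2(FPKM + 1). On this scale the change of a low gene is understated.

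**Figure D1:**
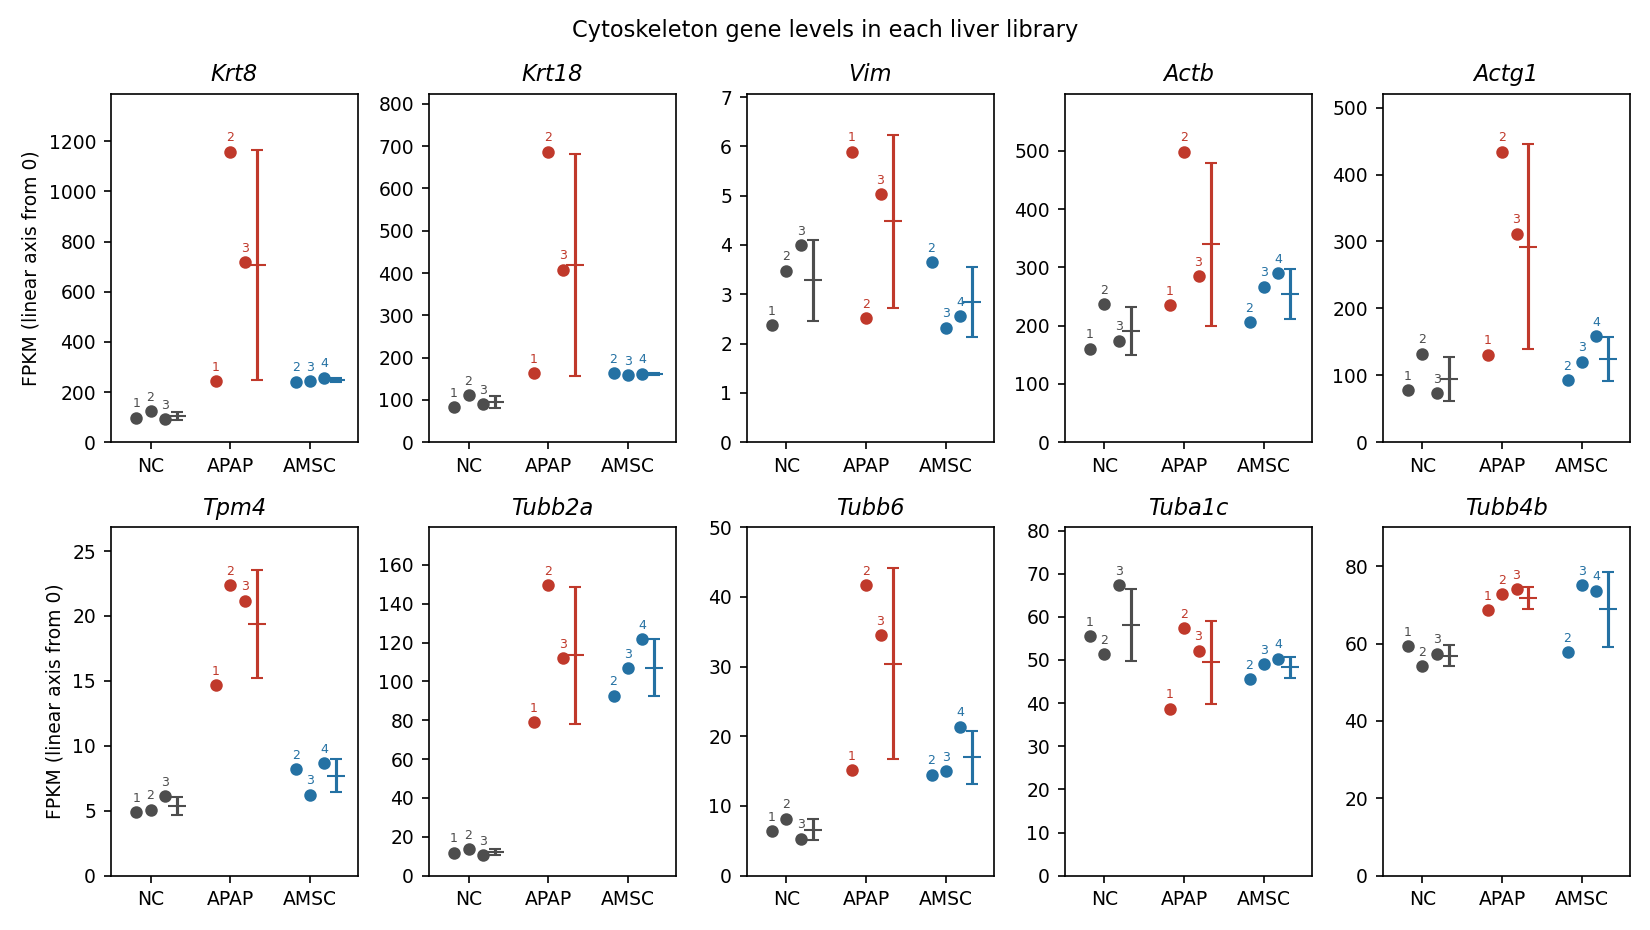
Level of each of the 10 genes in FPKM (linear axes from 0) in the NC, APAP and AMSC livers. Each dot is 1 library with its replicate number, and the bar beside it is the group mean ± SD (n = 3). Krt8 and Krt18 in APAP replicate 1 lie with the AMSC libraries, Tubb2a is far above NC in all 6 treated livers, and Tuba1c and Vim overlap between NC and APAP.

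After APAP, 6 of the 10 genes rose: Krt8, Krt18, Actg1, Tpm4, Tubb2a and Tubb6. Of all genes tested, 5.09% rose and 7.9% changed in either direction. The median log2 fold change of the 10 was 1.59, beside -0.0043 over all genes tested. None fell, and Vim, Actb, Tuba1c and Tubb4b did not pass. With no filter on low genes, Krt8 (adjusted p = 0.0823), Krt18 (0.119), Actg1 (0.173) and Tubb6 (0.0607) lost their call, and Tubb2a and Tpm4 kept it. With stem cells beside APAP, Tpm4 fell relative to APAP alone, where 1.22% of all genes tested fell and 1.96% changed. All 10 differences from APAP were negative, with a median of -0.59 beside 0.01 over all genes tested, although those of Tubb2a and Tuba1c, near 0, turned positive with quantile normalization. Without APAP replicate 1, 7 genes rose after APAP, the 6 and Actb. In that case 5 were lower in AMSC than in APAP: Krt8, Krt18, Actg1, Tubb6 and Tpm4. Without APAP replicate 2, 5 rose after APAP, and 1, Tpm4, was lower in AMSC than in APAP. Against NC, 3 of the 10 were still higher in the AMSC livers, Krt8, Tubb2a and Tubb6, where 3.92% of all genes tested rose and 6.01% changed. The APAP libraries serve in 2 of these comparisons and the NC libraries in 2, so the comparisons are not independent.

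**Figure D2:**
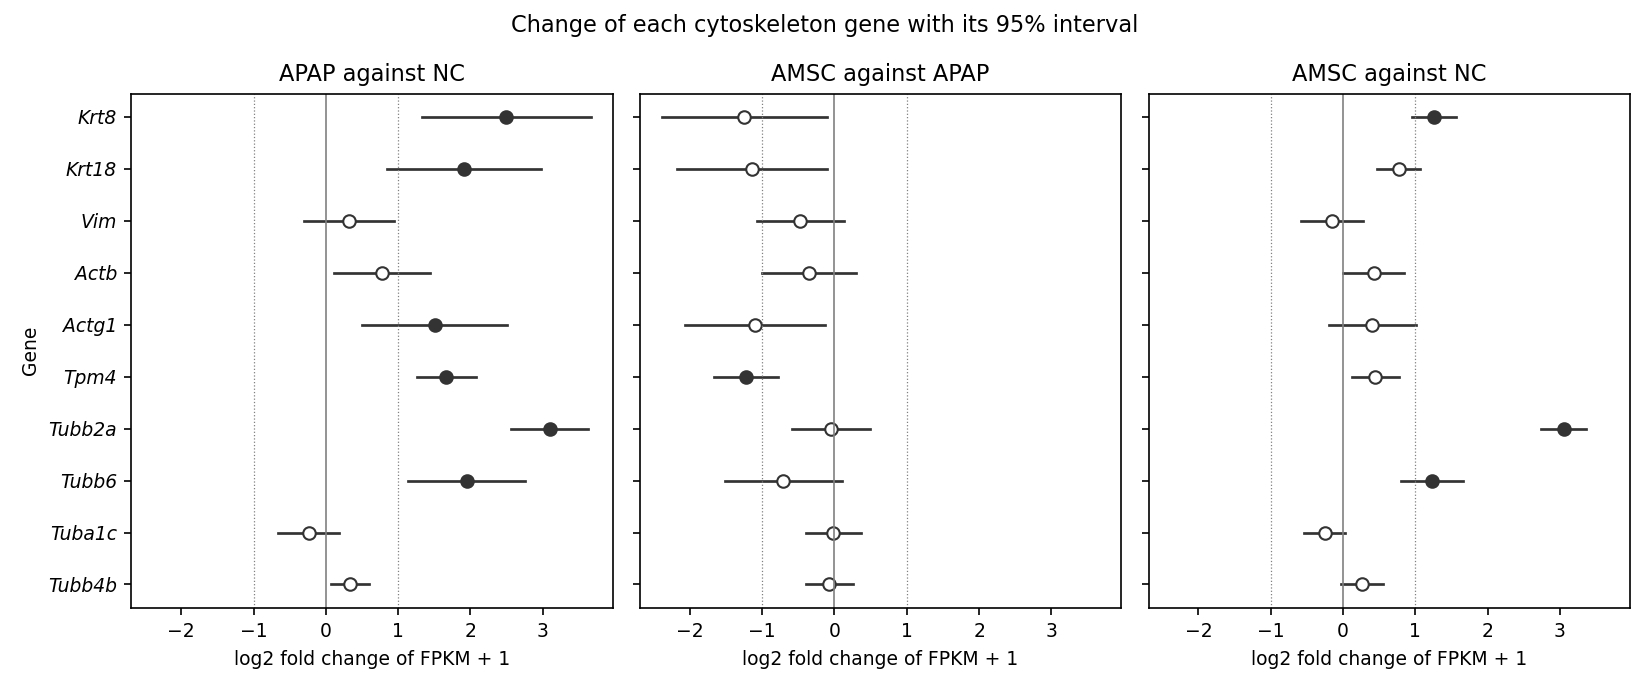
Log2 fold change of FPKM + 1 (x axis) of each gene (y axis) in the 3 comparisons, with its 95% interval from limma. Filled dots passed both the adjusted p of 0.05 and the log2 fold change of 1, marked by dotted lines. Tubb2a sits at 3.09 and 3.05 against NC and at -0.04 between the treated groups, and Tpm4 is at 1.66 in APAP against NC and at -1.22 in AMSC against APAP.

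Upstream sequence is shown for 3 of the genes that behaved differently: Tubb2a, which rose most, Tubb4b, a beta-tubulin of the same family that did not pass, and Actg1, which holds an actin-type element. RefSeq windows from 250 bases before to 50 after the start (GRCm38.p6) were found for 8 of the 10 genes, all but Actb and Tubb6. The sequences run 5′ to 3′ on the gene's own strand, which is the minus strand for all 3. Those of Tubb2a and Tubb4b end at the base before the RefSeq start, and that of Actg1 leaves out the 47 bases before it, which lie inside the gene as the table gives it, and holds 203 bases. Capitals mark TGACGTCA, the cAMP response element palindrome, and TATAAA, the TATA box, in Tubb2a (chr13:34078009-34078258), CCAAT in Tubb4b (chr2:25224703-25224952), and the CArG box, the element bound by serum response factor, in Actg1 (chr11:120348543-120348745).
Tubb2a: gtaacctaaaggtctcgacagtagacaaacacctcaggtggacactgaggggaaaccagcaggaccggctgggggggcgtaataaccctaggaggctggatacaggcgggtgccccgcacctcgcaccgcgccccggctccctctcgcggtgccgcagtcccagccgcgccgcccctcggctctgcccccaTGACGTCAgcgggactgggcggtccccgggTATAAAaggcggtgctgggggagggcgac
Tubb4b: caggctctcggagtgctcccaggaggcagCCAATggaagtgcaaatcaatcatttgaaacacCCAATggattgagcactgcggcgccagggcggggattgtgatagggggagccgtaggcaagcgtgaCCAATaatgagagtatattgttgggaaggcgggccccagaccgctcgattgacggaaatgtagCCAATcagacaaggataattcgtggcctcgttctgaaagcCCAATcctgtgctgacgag
Actg1: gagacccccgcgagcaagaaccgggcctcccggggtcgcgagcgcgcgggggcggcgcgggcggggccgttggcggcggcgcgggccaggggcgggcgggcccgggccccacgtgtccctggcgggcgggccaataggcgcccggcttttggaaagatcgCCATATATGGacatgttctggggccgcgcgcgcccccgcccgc
The letters TGACGTCA lay 59 to 52 bases before the Tubb2a start and TATAAA 29 to 24 bases before it, without overlap. Both strands were searched. Of 32851 RefSeq windows of this length, 1.79% held TGACGTCA, 1.63% a CArG box, 13.6% TATAAA and 37.4% CCAAT. Among the 8 genes with a window, TGACGTCA was found in Tubb2a and a CArG box in Actg1. TATAAA was found in Vim, Tubb4b, Tubb2a and Krt8, and CCAAT in Vim, Tubb4b, Actg1 and Tuba1c. GGGCGG was also searched and found in Tubb4b, Tpm4, Actg1 and Tubb2a, beside 35.7% of all windows. TGANTCA, with N any base, was found in 0 of the 8, beside 7.81% of all windows. The TATAAA letters lay 32 to 27 bases before the start in Vim and across the start in Krt8. In Tubb4b they lay at bases 19 to 24 after the start, outside the sequence shown. A match describes these letters and was not tested as a binding site.

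Both hepatocyte keratins rose after APAP, by 6.80 times (Krt8) and 4.42 times (Krt18) in the ratio of group means. The 2 genes lie side by side on chromosome 15, Krt8 at 101996698 to 102004482 on the minus strand and Krt18 at 102028180 to 102032027 on the plus strand (GRCm38). Krt8, the type II partner, stood at 97.2, 123 and 91.2 FPKM in NC replicates 1, 2 and 3. In APAP replicates 1, 2 and 3 it read 242, 1158 and 718 FPKM, and in AMSC replicates 2, 3 and 4 it read 241, 243 and 257 FPKM. Every treated library was above every NC library, and APAP replicate 1 lay within the narrow AMSC range. In bulk tissue, fewer cells of a type and less RNA per cell cannot be told apart, here or in any result that follows. The log2 fold change of Krt8 against NC was 2.50 (SE 0.50, adjusted p = 0.0104 by limma) in APAP, 3.13 without APAP replicate 1, and 1.25 (SE 0.13, adjusted p = 0.000484) in AMSC. The AMSC call was lost when all 9 libraries shared 1 fit (adjusted p = 0.0704). Between AMSC and APAP the change was -1.24 (SE 0.49, adjusted p = 0.206), which did not pass. Without APAP replicate 1 that difference was -1.88 with an adjusted p of 0.00693, and it passed. Without APAP replicate 2 it was -0.75 (adjusted p = 0.372).

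Krt18, the type I partner, read 83.1, 111 and 90.4 FPKM in the NC libraries. The APAP libraries held 163, 687 and 408 FPKM and the AMSC libraries 164, 158 and 162 FPKM. As for Krt8, all treated libraries were above NC and the first APAP library matched the AMSC level. The AMSC values were the tightest of any member in any group, with a coefficient of variation of 1.63% beside 62.6% in APAP. Krt18 rose after APAP by 1.91 on the log2 scale (SE 0.46, adjusted p = 0.0201). That call was lost on leaving out APAP replicate 3 (adjusted p = 0.0585) or NC replicate 1 (0.0641), 2 (0.0507) or 3 (0.0570), while Krt8 kept its call whichever library was left out. AMSC against NC gave 0.77 (SE 0.13, adjusted p = 0.00374), below the required size of change. AMSC against APAP gave -1.14 (SE 0.45, adjusted p = 0.203), and -1.71 with an adjusted p of 0.0111 without APAP replicate 1. Without APAP replicate 2 the difference was -0.67 (adjusted p = 0.355).

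The balance of the keratin pair was also read within each library. In NC the Krt8 to Krt18 ratio of FPKM was 1.17, 1.10 and 1.01, close to equal levels per length. It was 1.49, 1.69 and 1.76 in APAP and 1.47, 1.53 and 1.59 in AMSC, above NC in all 6 treated livers, APAP replicate 1 included. The mean log2 ratio was 0.59 higher in APAP than in NC and 0.49 higher in AMSC than in NC. An exact two-sided permutation test gave p = 0.1 for each, which is the smallest p that 3 libraries against 3 allow, and 0.15 after Benjamini-Hochberg adjustment over 18 such tests of ratios and shares. Between AMSC and APAP the log2 ratio differed by -0.10 (exact permutation p = 0.3). Reads counted to the processed pseudogene Krt8-ps, a near copy of Krt8, numbered 11 in NC, 100 in APAP and 40 in AMSC. They were at most 58 in a library, beside 3073 to 28111 for Krt8, so any Krt8 reads counted there were few. Gm36026, which overlaps Krt8 on the other strand, was listed at 0.181 FPKM at most.

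**Figure D3:**
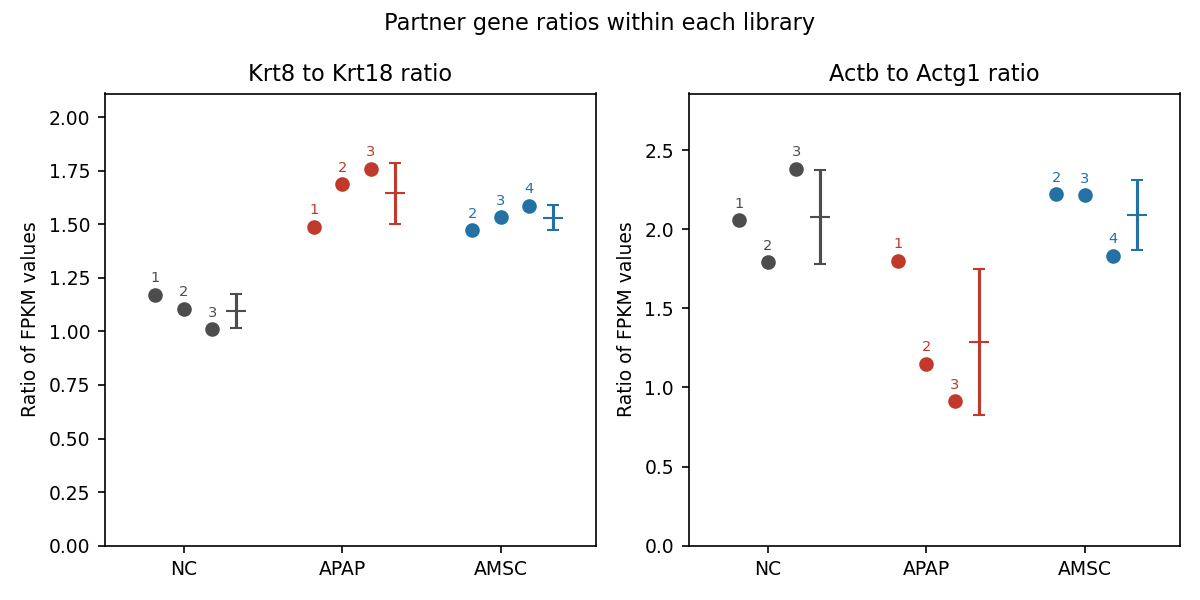
Ratio of FPKM values within each library (linear y axes from 0) for the keratin pair and for the 2 cytoplasmic actins, by group. Dots are libraries with replicate numbers, bars are mean ± SD (n = 3). The keratin ratio is 1.01 to 1.17 in NC and 1.47 to 1.76 in the 6 treated livers. The actin ratio is as low as 0.914 in APAP replicate 3 and is 1.83 to 2.22 in AMSC.

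Of the 19 other keratins and keratin partners, 10 were tested. Beside a share of 5.09% over all genes tested, 1 of them rose after APAP, with a list median of 0.31. This was Ppl, periplakin, a plakin that links keratin filaments to the cell periphery, at 2.06, 2.29 and 1.59 FPKM in NC against 8.08, 33.5 and 18.9 FPKM in APAP (log2 fold change 2.63, SE 0.42, adjusted p = 0.00432). As with the keratins, APAP replicate 1 was the lowest of its group. In AMSC, Ppl (4.79, 9.10 and 10.4 FPKM) and Eppk1, epiplakin, a keratin-binding plakin, were higher than in NC, by 1.56 (adjusted p = 0.00292) and 1.54 (adjusted p = 0.00941, and 0.0905 with no filter on low genes). Eppk1 stood at 0.938 to 2.49 FPKM in NC, 1.25 to 3.44 FPKM in APAP and 4.61 to 11.5 FPKM in AMSC, and it did not pass between AMSC and APAP (1.37, adjusted p = 0.0720), though it did without APAP replicate 2 (1.64, adjusted p = 0.0493) and when all 9 libraries shared 1 fit (adjusted p = 0.0423). No other gene of this list passed there in a fit without the block. Krt19 and Krt7, keratins of bile duct cells, were at most 3.29 FPKM and 0.229 FPKM in any library. The summed level of cholangiocyte markers was 22.2 to 45.1 FPKM in NC, 60.4 to 100.3 FPKM in APAP and 30.7 to 53.1 FPKM in AMSC. Of 10 such markers 5 were tested, and Sox9 (0.970 to 2.14 FPKM in NC, 21.4 to 33.1 FPKM in APAP, 2.49 to 3.74 FPKM in AMSC) and Spp1 rose after APAP, and Sox9 was lower in AMSC than in APAP. Over all genes tested these shares were 5.09% and 1.22%. Of the 5, 1 went the other way after APAP, with an adjusted p of at most 0.05 but under the required size of change. Spp1 lost its call without NC replicate 1 (adjusted p = 0.110) or 3 (0.0989) or APAP replicate 2 (0.108) or 3 (0.0902). The part of these cells in the keratin result was not tested.

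Vimentin, the intermediate filament of mesenchymal and endothelial cells and of leukocytes, was the lowest of the 10 genes in every group. Vim (chromosome 2, 13573927 to 13582826, plus strand) was at 2.38, 3.47 and 3.99 FPKM in NC. It was at 5.89, 2.52 and 5.04 FPKM in APAP, and at 3.65, 2.32 and 2.55 FPKM in AMSC. The groups overlapped, and the order of the APAP libraries was the reverse of that of the keratins, with APAP replicate 1 the highest. Log2 fold changes were 0.32 for APAP against NC (95% interval -0.30 to 0.94, adjusted p = 0.416), -0.47 for AMSC against APAP (-1.08 to 0.13, adjusted p = 0.356) and -0.15 for AMSC against NC (-0.58 to 0.27, adjusted p = 0.582). APAP replicates 1 and 3, which held most Vim, also held most of the endothelial markers (129 and 74.1 FPKM summed, 47.0 FPKM in replicate 2), stromal markers (83.9 and 68.5 FPKM, 37.9 FPKM in replicate 2) and macrophage markers (354 and 509.8 FPKM, 193 FPKM in replicate 2). Their part in the Vim level was not tested. Of 14 other intermediate filament and lamin genes, 4 were tested and none passed in any comparison with the pseudocount of 1. At an unadjusted p under 0.05, 1 of the 4 differed in APAP against NC, 0 in AMSC against APAP and 2 in AMSC against NC, beside 39.1%, 20.9% and 38.0% of all genes tested. Lmnb2, a lamin (2.72 to 3.16 FPKM in NC, 1.04 to 1.98 FPKM in APAP, 1.19 to 1.55 FPKM in AMSC), passed against NC with a pseudocount of 0.1, at -1.08 in APAP and -1.03 in AMSC.

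Of the cytoplasmic actins, gamma-actin rose after APAP by 3.09 times in the ratio of means, and beta-actin, the more abundant of the 2 in NC, had a ratio of 1.78 and did not pass. Actg1 (chromosome 11, 120345690 to 120348542, minus strand) read 77.9, 132 and 73.2 FPKM in NC, then 131, 434 and 312 FPKM in APAP, and 92.9, 120.4 and 158 FPKM in AMSC. NC and APAP touched, since APAP replicate 1 was just under NC replicate 2, and AMSC overlapped both. The log2 fold change was 1.51 in APAP (SE 0.43, adjusted p = 0.0380), -1.10 in AMSC against APAP (SE 0.42, adjusted p = 0.190) and 0.40 in AMSC against NC (SE 0.26, adjusted p = 0.290). The rise after APAP was lost without APAP replicate 2 (adjusted p = 0.109) or 3 (0.102), without NC replicate 1 (0.112) or 3 (0.108) and after quantile normalization (1.26, adjusted p = 0.0651). Without APAP replicate 1, the difference between AMSC and APAP passed (-1.60, adjusted p = 0.0211). Without APAP replicate 2 it was -0.73 (adjusted p = 0.354).

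Actb (chromosome 5, 142903115 to 142906754, minus strand) read 160.2, 237 and 174 FPKM in NC, 235, 499 and 285 FPKM in APAP, and 206, 267 and 289.9 FPKM in AMSC. APAP replicate 2 stood above all other libraries, and the rest of the 3 groups overlapped. The log2 fold change was 0.77 in APAP against NC (SE 0.29, adjusted p = 0.0858), -0.35 in AMSC against APAP (adjusted p = 0.530) and 0.42 in AMSC against NC (adjusted p = 0.135). Without APAP replicate 1, the first of these was 1.001 with an adjusted p of 0.0347, and it passed. Beta-actin is often used as a reference gene for liver transcripts, and its levels here ranged from 160.2 to 499 FPKM.

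The Actb to Actg1 ratio was 2.06, 1.79 and 2.38 in NC, 1.80, 1.15 and 0.914 in APAP, and 2.22, 2.22 and 1.83 in AMSC. In APAP replicate 3 gamma-actin exceeded beta-actin per length. The AMSC and APAP libraries did not overlap, with APAP replicate 1 (1.80) just under AMSC replicate 4 (1.83). The mean log2 ratio differed by 0.75 between AMSC and APAP (exact permutation p = 0.1, adjusted p = 0.15), by -0.74 between APAP and NC (exact permutation p = 0.2) and by 0.01 between AMSC and NC (exact permutation p = 0.9). The actins share long stretches of sequence, so the split of reads between them depends on the counting, which was not given in the sources used here. None of the 5 tested members of the other actin list (Acta2, Actl6a, Actr1a, Actr1b and Actr10) passed in any comparison without the replicate block. At an unadjusted p under 0.05 there were 2 of the 5 in APAP against NC, 1 in AMSC against APAP and 0 in AMSC against NC, beside the 39.1%, 20.9% and 38.0% of all genes. Acta2, the smooth muscle actin, ranged from 0.195 to 1.08 FPKM in NC and from 1.18 to 5.97 FPKM in APAP (1.05, adjusted p = 0.109), and it passed when the replicate number was a block (adjusted p = 0.0312).

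Tpm4, a non-muscle tropomyosin that winds along actin filaments, was the member with a difference between AMSC and APAP that passed. It lies at 72134975 to 72153142 on chromosome 8, plus strand. Its levels were 4.90, 5.07 and 6.12 FPKM in NC, 14.7, 22.4 and 21.2 FPKM in APAP, and 8.20, 6.25 and 8.67 FPKM in AMSC. The 3 groups did not overlap: the lowest APAP library was above the highest AMSC library, and the lowest AMSC library was above the highest NC library. Tpm4 rose after APAP by 1.66 (SE 0.18, adjusted p = 0.000822), and kept this call whichever library was left out. It was lower in AMSC than in APAP (log2 fold change -1.22, SE 0.19, adjusted p = 0.0207). This second call was lost without APAP replicate 3 (adjusted p = 0.0709) or AMSC replicate 2 (0.0649), 3 (0.0767) or 4 (0.0614), and with no filter on low genes (0.127), with the log2 fold change between -1.40 and -1.09 in the 6 fits that left out 1 library. AMSC against NC gave 0.45 (SE 0.14, adjusted p = 0.0510). Gm16091 and Gm26586 overlap Tpm4 on the other strand, at 1.59 FPKM at most, and the strand setting of the counting was not given in the sources used here.

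Other actin-associated genes were read from fixed lists. Of 53 actin assembly, severing and crosslinking genes, 40 were tested. Over all genes tested, 5.09% rose after APAP and 1.22% were lower in AMSC than in APAP. After APAP 4 of the 40 rose and none fell (median 0.14), and 2 rose without NC replicate 1, without APAP replicate 3 or with no filter on low genes, where Gsn and Tmsb4x lost their call. The other 2 were Zyx, zyxin of focal adhesions (6.37, 7.58 and 5.76 FPKM in NC, 14.7, 22.7 and 17.0 FPKM in APAP; 1.33, adjusted p = 0.00219) and Pdlim7 (1.20, adjusted p = 0.00572). In AMSC against APAP 3 of the 40 were lower, Marcksl1 (-1.41, adjusted p = 0.0200), Tmsb4x, an actin monomer binder (-1.39, adjusted p = 0.0354), and Zyx (-1.04, adjusted p = 0.0262), with a list median of -0.07. Zyx kept this call without APAP replicate 1 and lost it without APAP replicate 2 (-0.87) or 3 (adjusted p = 0.0719) or AMSC replicate 2 (0.0856), 3 (0.105) or 4 (0.0676). Tmsb4x kept it without APAP replicate 2 and lost it without APAP replicate 1 (adjusted p = 0.0612) or 3 (0.0719) or AMSC replicate 2 (0.0768), 3 (0.128) or 4 (0.123), and Marcksl1 lost it without AMSC replicate 3 (0.0815) or 4 (0.0838). Tmsb4x, at 106.6, 71.6 and 151 FPKM in APAP, followed the macrophage marker sums of 354, 193 and 509.8 FPKM in the same libraries. The part of macrophages in it was not tested. Marcksl1 was also lower in AMSC than in NC (-1.02, adjusted p = 0.0140), a change that shrank below the required size without NC replicate 3 (-0.78) or AMSC replicate 3 (-0.99) or 4 (-0.89), and no gene of the list rose there. None of the 9 genes of the Arp2/3 complex, which nucleates branched actin, passed in any comparison, and 2, 1 and 1 of them had an unadjusted p under 0.05 in APAP against NC, AMSC against APAP and AMSC against NC, a smaller share than of all genes tested each time.

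Of 29 other tropomyosins, myosins and calponins, 19 were tested. Beside a share of 5.09% over all genes tested, 4 of the 19 rose after APAP (median 0.19). Of these, Myl12a lost its call without APAP replicate 2 (adjusted p = 0.0672) or 3 (0.0671). It was also lost without NC replicate 1 (0.0761), 2 (0.0649) or 3 (0.0514), and with no filter on low genes (0.118). Myo1e, a membrane-linked class I myosin, stood at 5.65, 5.52 and 4.66 FPKM in NC, 17.5, 29.3 and 16.8 FPKM in APAP and 16.1, 17.0 and 24.9 FPKM in AMSC. It rose in both treated groups against NC, by 1.78 (adjusted p = 0.00133) and 1.67 (adjusted p = 0.000370). Myl9, a regulatory light chain of contractile myosin, had, like Tpm4, calls in 2 comparisons. It read 0.670, 1.74 and 1.05 FPKM in NC, 4.88, 5.63 and 6.28 FPKM in APAP and 1.08, 1.85 and 2.06 FPKM in AMSC. It rose by 1.64 after APAP (adjusted p = 0.00127) and was lower in AMSC than in APAP, with a difference of -1.32 (adjusted p = 0.0104, and 0.0980 with no filter on low genes). In AMSC against NC Myl9 gave 0.32 (adjusted p = 0.309). Myh9 did not pass between AMSC and APAP. It was called lower in AMSC when all 9 libraries shared 1 fit (-1.11, adjusted p = 0.0370). The same held with voom (-1.18, adjusted p = 0.0461) and with the replicate block (-1.32, adjusted p = 0.0228).

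Serum response factor, with its actin-sensing cofactors, is known to drive actin and tropomyosin genes as well as immediate early genes. Of 37 genes in the list of this factor and its targets outside the 10, 27 were tested and 10 rose after APAP, with a median of 0.73. Over all genes tested 5.09% rose, with a median of -0.0043. The part of this factor in the member levels was not tested. Zyx, Pdlim7, Myl9 and Myh9 stood in this list as well as in the actin lists. Egr1 rose from 0.348, 0.387 and 0.467 FPKM in NC to 196, 369 and 235 FPKM in APAP (7.53, adjusted p = 4.67e-06), and Fos rose by 6.46 (adjusted p = 1.87e-05). Egr1, under 1 FPKM in each NC library, passed the filter only through the treated groups. In AMSC, 6 of the 27 were above NC (median 0.32), beside 3.92% of all genes tested. Egr1 stood at 173, 105 and 157 FPKM there, and Fos was higher by 6.21 (adjusted p = 2.47e-06). Those that were lower in AMSC than in APAP were 2 of the 27, Myl9 and Zyx, with a list median of -0.36, beside 1.22% of all genes tested. Srf itself gave 0.73 after APAP (adjusted p = 0.0266), under the required size of change.

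Tubulin genes ranged from the largest rise among the 10 to none. The class II beta-tubulin Tubb2a rose 9.43 times after APAP and 8.90 times in AMSC, in the ratio of group means. Tubb2a (chromosome 13, 34074274 to 34078007, minus strand) read 11.9, 13.5 and 10.6 FPKM in NC. It reached 79.0, 149.6 and 112 FPKM in APAP and 92.8, 107 and 122 FPKM in AMSC. All 6 treated libraries were far above NC, APAP replicate 1 too, and the treated groups overlapped fully. The log2 fold change against NC was 3.09 in APAP (SE 0.23, adjusted p = 0.000172) and 3.05 in AMSC (SE 0.14, adjusted p = 5.01e-06), and 0.608% and 0.454% of all genes tested had a larger one. Between AMSC and APAP it was -0.04, with a 95% interval from -0.58 to 0.50 (adjusted p = 0.943), and -0.28 without APAP replicate 1 (adjusted p = 0.419). The rise against NC was called in both groups under every alternative tried.

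Tubb2b, the neighbouring class II gene and a close paralog, held 2 reads in each NC library. It was covered by 207 reads in all in APAP and 222 in AMSC, against 6 in NC. After scaling the libraries these are 45.0 times the NC reads (95% exact interval 20.3 to 124) and 43.1 times (19.5 to 119), where the intervals cover counting error only. Its levels were 2.08, 2.74 and 2.11 FPKM in APAP and 2.44, 2.35 and 1.83 FPKM in AMSC, and it rose in both against NC (1.65, adjusted p = 0.000239, and 1.60, adjusted p = 8.36e-05). With 2 reads in each NC library, Tubb2b reached the filter of 1 FPKM only through the treated groups, so these calls add no independent support. As the reads of the 2 class II genes can be confused, the split between them is uncertain.

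Tubb6, the class V beta-tubulin, followed the keratins in its spread. Tubb6 (chromosome 18, 67390717 to 67402748, plus strand) was at 6.38, 8.19 and 5.29 FPKM in NC, 15.1, 41.7 and 34.5 FPKM in APAP, and 14.5, 15.0 and 21.4 FPKM in AMSC. Treated libraries did not overlap with NC, and APAP replicate 1 fell within the AMSC range. It rose by 1.95 in APAP (SE 0.35, adjusted p = 0.00662) and by 1.23 in AMSC (SE 0.19, adjusted p = 0.00252). AMSC against APAP gave -0.71 (SE 0.35, adjusted p = 0.298), and -1.14 with an adjusted p of 0.0292 without APAP replicate 1, where it passed. Without APAP replicate 2 the difference was -0.43 (adjusted p = 0.549).

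Tubb4b and Tuba1c, the most abundant beta- and alpha-tubulin of the NC livers, did not pass in any comparison. Tubb4b (chromosome 2, 25222160 to 25224702, minus strand) read 59.3, 54.1 and 57.3 FPKM in NC, 68.6, 72.8 and 74.0 FPKM in APAP and 57.7, 75.1 and 73.6 FPKM in AMSC. The APAP libraries were all above NC, in a narrow range with a coefficient of variation of 3.93%, but the log2 fold change was 0.33 (95% interval 0.07 to 0.59, adjusted p = 0.0650). AMSC replicate 2 lay within the NC range, and AMSC against NC gave 0.26 (adjusted p = 0.169). Tuba1c (chromosome 15, 99029891 to 99038110, plus strand) read 55.5, 51.4 and 67.3 FPKM in NC, 38.7, 57.4 and 52.2 FPKM in APAP and 45.5, 49.1 and 50.3 FPKM in AMSC. Every AMSC library was below every NC library, while APAP overlapped both. Its log2 fold changes were -0.24 in APAP (95% interval -0.66 to 0.18, adjusted p = 0.368) and -0.25 in AMSC (-0.54 to 0.03, adjusted p = 0.175). Between AMSC and APAP both genes had intervals within 0.40 of zero, -0.39 to 0.37 for Tuba1c and -0.39 to 0.26 for Tubb4b.

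Counted without the test, 6 of the 10 genes had every APAP library above every NC library, beside 20.9% of all genes tested: Krt8, Krt18, Tpm4, Tubb2a, Tubb6 and Tubb4b. In AMSC against NC there were 5 above, beside 23.2%, the same without Tubb4b, and 1 below, Tuba1c, beside 20.3%. In AMSC against APAP there was 1 below, Tpm4, beside 12.4%.

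Tubulin make-up was compared as shares within each library. The summed FPKM of all alpha- and beta-tubulin genes was 217 ± 6.77 (SD, n = 3) in NC, 355 ± 53.7 in APAP and 309 ± 29.2 in AMSC. Summed beta-tubulin was 92.2 ± 3.23, 238 ± 47.2 and 207 ± 25.2 FPKM, whereas summed alpha-tubulin was 116 to 136 FPKM in NC, 107 to 125 FPKM in APAP and 97.9 to 106 FPKM in AMSC. Beta-tubulin thus made up 39.5% to 44.7% of summed tubulin in NC and 63.7% to 70.5% in the treated livers. Tubb2a took 5.52%, 6.43% and 4.75% in NC, 26.7%, 37.3% and 30.5% in APAP and 33.3%, 34.3% and 36.1% in AMSC. The mean share of Tubb2a was 25.9 percentage points higher in APAP than in NC and 29.0 points higher in AMSC than in NC, and those of Tubb6 5.23 and 2.39 points higher. For Tuba1c the differences were -12.8 and -11.04 points, and for Tubb4b -5.74 and -4.01 points. All 8 of these differences in FPKM shares had groups that did not overlap, each at the smallest exact permutation p of 0.1 (adjusted p = 0.15). Taken from recovered reads, which are not divided by gene length, the Tubb4b differences were -1.83 and -0.10 points and those of Tuba1c -9.30 and -7.43 points. Between AMSC and APAP, the Tubb2a share differed by 3.09 points (exact permutation p = 0.5), and by 0.693 points without APAP replicate 1 to 5.99 points without APAP replicate 2. The Tuba1c share was 1.81 points higher in AMSC than in APAP, with groups that did not overlap (exact permutation p = 0.1, adjusted p = 0.15). A share moves when any other tubulin moves, so these values are not independent of each other.

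**Figure D4:**
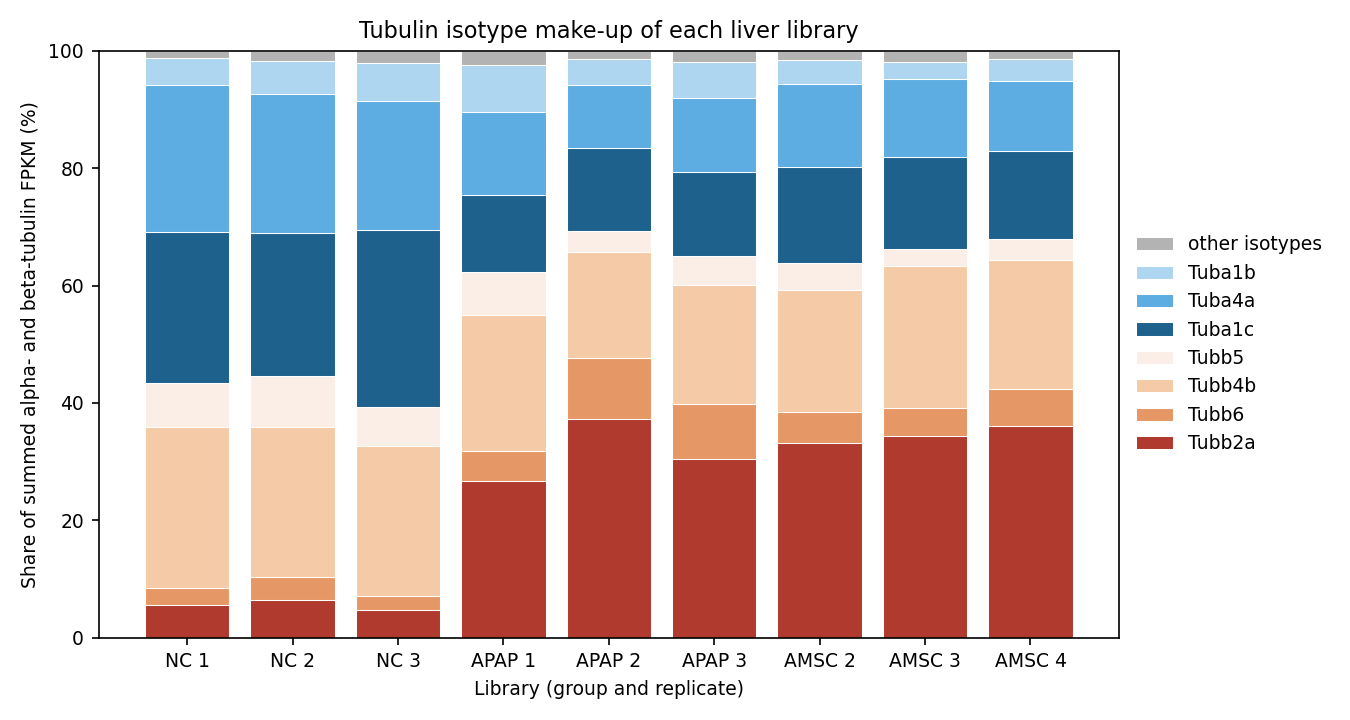
Share of summed alpha- and beta-tubulin FPKM (y axis, %) held by each isotype in each of the 9 libraries (x axis, group and replicate). Warm colours are beta-tubulins, blues are alpha-tubulins and grey is the sum of all other isotypes. Tubb2a takes 4.75% to 6.43% in NC and 26.7% to 37.3% in the 6 treated livers.

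Among the 16 other tubulins, 8 were tested (median -0.06 after APAP), where 7.9% of all genes tested changed. Beside the rise of Tubb2b, 2 fell after APAP. These were Tuba8, an alpha-tubulin (1.77, 1.84 and 2.47 FPKM in NC against 0.527, 0.357 and 0.362 FPKM in APAP; -1.09, adjusted p = 0.00188), and Tubd1, delta-tubulin of centrioles (2.27 to 2.58 FPKM against 0.390 to 0.756 FPKM; -1.10, adjusted p = 0.00183). Each came under the required size of change without 1 library, Tuba8 without NC replicate 3 (-0.99) and Tubd1 without APAP replicate 2 (-0.98). In AMSC, Tuba8 (0.751 to 0.952 FPKM) and Tubd1 (0.900 to 1.26 FPKM) lay between the other groups, with log2 fold changes against NC of -0.69 and -0.73 that were under the required size. Tuba1b read 9.88 to 14.6 FPKM in NC, 17.3 to 23.9 FPKM in APAP and 9.40 to 12.6 FPKM in AMSC, with 0.77 (adjusted p = 0.0173) and -0.86 in AMSC against APAP (adjusted p = 0.0367), both under the required size. The remaining 4 did not pass either: Tuba4a (39.3 to 54.0 FPKM over all 9 libraries), Tubb5 (8.90 to 21.7 FPKM), Tubg1, gamma-tubulin (8.30 to 16.7 FPKM), and Tuba1a (0.492 to 3.10 FPKM). Of 52 genes for tubulin folding and microtubule proteins, 39 were tested, and none passed in any comparison, with medians of 0.05, 0.04 and 0.04 in APAP against NC, AMSC against APAP and AMSC against NC. Those with an unadjusted p under 0.05 were 11, 5 and 10 of the 39, again a smaller share than of all genes tested. Tbcc, a tubulin folding cofactor, passed in AMSC against APAP without APAP replicate 2 (1.08, adjusted p = 0.0435).

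The order of the 10 levels per length changed between groups. In NC Actb (190.6 ± 40.9 FPKM) was above Krt8 (104 ± 16.9 FPKM) in every library. Krt8, Krt18 and Actg1 followed with ranges that overlapped across libraries, although Krt8 was above Krt18 in each library. In APAP Krt8 (706 ± 458 FPKM) had the highest mean and was the highest of the 10 in every library. Across libraries, the ranges of Krt8, Krt18, Actb, Actg1 and Tubb2a overlapped from neighbour to neighbour. Actg1 was still above Tubb2a in each library. In AMSC Actb (254 ± 43.1 FPKM) and Krt8 (247 ± 8.66 FPKM) overlapped at the top, and Krt18 (161 ± 2.63 FPKM) was below both. Tubb2a moved from the seventh place in NC, below Tuba1c and Tubb4b, to the fifth in both treated groups, where it exceeded both in every library. Vim was last in each group.

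Over the 9 libraries, log2(FPKM + 1) of Krt8 and Krt18 had a Pearson r of 0.991. Tubb6 was most like Krt8 (0.976), as was Tpm4 (0.908), Actg1 was most like Krt18 (0.950), Actb most like Actg1 (0.918), Tubb2a most like Tubb6 (0.898) and Tubb4b most like Tubb2a (0.817). Vim and Tuba1c had r of -0.02 and -0.23 with the mean of the other members. Outside the 10, the genes most like their mean profile were Rcan1 (0.984), Pdlim7 (0.980), Rsrc2 (0.979), Gm26917 (0.978) and Rab30 (0.977). Rcan1, a regulator of calcineurin, stood at 16.2, 16.0 and 17.3 FPKM in NC, 40.7, 97.9 and 74.1 FPKM in APAP and 31.7, 33.6 and 35.8 FPKM in AMSC, with APAP replicate 1 again the lowest of its group. The 9 points share 3 groups, and these values only describe likeness.

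Markers of other cells moved between the groups too. Summed neutrophil markers were 0.495 to 2.18 FPKM in NC, 7.97 to 36.2 FPKM in APAP and 4.86 to 6.38 FPKM in AMSC, and Camp was at 0 in all libraries. Of the 11, 3 were tested and all 3 rose after APAP, beside 5.09% of all genes tested. The filter is a mean over the 9 libraries. These markers, low in NC, reached it mainly through the treated groups, so this count is no independent result. With no filter S100a8 lost its call (adjusted p = 0.0976). Summed macrophage markers were 134 to 262 FPKM, 193 to 509.8 FPKM and 118 to 189 FPKM. Of 12 tested, 2 rose after APAP, Cd68 and Timd4, and 1 was lower in AMSC than in APAP, Cd68, beside 5.09% and 1.22% of all genes tested. All 12 lay below 0 in AMSC against APAP, with a median of -1.21. Of these, 11 had an unadjusted p under 0.05, beside 20.9% of all genes tested. Timd4 lost its call without NC replicate 1 (adjusted p = 0.151) or 2 (0.143) or APAP replicate 1 (0.108) or 3 (0.135), with no filter (0.196) or with quantile normalization (0.0601), and Cd68 lost its second call without AMSC replicate 2 (0.0805) or 4 (0.0567) or APAP replicate 3 (0.0852) or with no filter (0.143). Endothelial markers summed to 41.7 to 83.8 FPKM, 47.0 to 129 FPKM and 42.3 to 45.6 FPKM, and stromal markers to 26.7 to 48.1 FPKM, 37.9 to 83.9 FPKM and 35.4 to 56.0 FPKM. None of the 12 tested in each list passed under the main settings. Without APAP replicate 2, macrophage markers Adgre1, C1qb, C1qc, Cd5l, Clec4f, Csf1r, Lyz2, Timd4 and Vsig4 were called lower in AMSC than in APAP. So were neutrophil markers S100a8 and S100a9 and endothelial markers Cdh5, Clec4g and Fcgr2b. In AMSC against APAP, 7 of the 12 endothelial and 3 of the 12 stromal markers had an unadjusted p under 0.05. Lymphocyte markers summed to 1.65 to 4.87 FPKM and none was tested. APAP replicate 2, with the highest Krt8, Krt18, Actb, Actg1, Tubb2a, Tubb6 and Tpm4, had the lowest sums of its group for all 5 lists of blood and non-epithelial cells.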

How the data were processed

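The authors deposited 1 table of FPKM values per gene for liver RNA of 9 mice, 3 per group, from libraries made with a SMARTer mRNA-Seq kit. Whether the kit or the counting kept the strand, and the aligner, counter and annotation, are not given in the sources used here. The submitters' processing notes name GRCm38 (mm10). The deposited FPKM values, multiplied by gene length, were whole multiples of a step per library (100% of values above 0, within 0.1), so reads were recovered. One read on 1 kb was worth 0.0578 to 0.0807 FPKM, and the library totals of 13418921 to 16210930 reads set the precision. The deposited FPKM were scaled by library factors proportional to median-of-ratios size factors, not by totals.

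The 9699 of 54532 genes whose mean reached 1 FPKM were tested on log2(FPKM + 1) with limma 3.58.1 in R 4.3.3 (lmFit, eBayes with trend), 2 groups per fit, with Benjamini-Hochberg adjustment over all genes tested. A call needed both an adjusted p no larger than 0.05 and a log2 change no smaller than 1 in size. All p-values given as adjusted p are from limma unless an exact permutation test is named. Ratios and shares within a library were compared by exact two-sided permutation tests. The fit of APAP against NC was tried on simulated reads with known changes. These had the same spread setting in both groups, so the wide spread of some members in APAP was not tested. The replicates are 3 mice per group by the study's methods, 1 library each. The title of NC replicate 3 carries another date than the rest and the number 1, its number 3 being that of its description and column, and no batch was fitted for a single library.

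Same-numbered NC and APAP libraries deviated together over the 9699 genes (correlations of 0.213, 0.160 and 0.378 for replicates 1, 2 and 3), so a fit with the replicate number as a block was also made. The pairing comes from the data and not from a statement of the labels, and for NC replicate 3, whose title has another number, it is uncertain. Other alternatives were another pseudocount (0.1), no filter, a filter at 5 FPKM, quantile normalization, 1 fit for all 9 libraries, voom on the recovered reads, the adjusted p alone, and leaving out each library.

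The 10 members and all gene lists were chosen with earlier results of these data known. All members are named in every comparison. From each list up to 4 called genes are named, those with the 2 largest rises and the 2 largest falls, and from the other tubulins and actins every gene with a mean of at least 1 FPKM. Marker lists are given by their summed level and the genes that define the type. Likeness is given for the 5 genes nearest to the members' mean standardised profile. Sox9, Spp1, Srf, Cyp2e1, Cd68, Timd4, Gsn, Lmnb2, Tbcc, Myl12a, Myh9 and the genes overlapping a member were named after their values were seen. So were the markers that gained a call without APAP replicate 2. Promoter windows were read from RefSeq (GRCm38.p6), a build of the same coordinates as the table. Gene coordinates are those of the table.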

Additional observations from a re-analysis of the deposited data

How the results depend on the processing

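The 10 log2 fold changes in 3 comparisons were recomputed under each alternative: 351 values kept direction and call, 19 lost the call, 9 gained it and 8 changed sign. The sign changes all belong to small differences between AMSC and APAP: with quantile normalization Tubb2a gave 0.00039 and Tuba1c 0.0029, and on leaving out 1 library Tubb2a ranged from -0.28 to 0.18, Tuba1c from -0.18 to 0.10 and Tubb4b from -0.14 to 0.051. The log2 Actb to Actg1 ratio of AMSC against NC, 0.01, ranged from -0.088 to 0.12 in the same way. Without a filter 2 of the 10 genes were called in APAP against NC and 0 in AMSC against APAP, where Tpm4 had an adjusted p of 0.127. Standard errors and the number of genes adjusted over both differ in that fit. Vim could not be fitted at the filter of 5 FPKM. Leaving out 1 library gave 4 to 7 called members in APAP against NC and 0 to 5 in AMSC against APAP, the 5 without APAP replicate 1. That library decides the keratin, Actg1 and Tubb6 calls between AMSC and APAP. It held the lowest levels of these genes among the APAP libraries, so leaving it out widens their difference from AMSC.

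Counts over all genes tested moved more. In APAP against NC, 766 genes were called, 478 at the filter of 5 FPKM, 1197 with voom on the recovered reads and 2514 by the adjusted p alone. In AMSC against APAP, 190 were called, 21 without a filter, 102 at 5 FPKM, 296 with voom, 367 by the adjusted p alone and 90 to 229 on leaving out 1 library. In AMSC against NC, 583 were called, 915 with a pseudocount of 0.1, 968 with voom and 2521 by the adjusted p alone. In recovered reads, which do not divide by gene length, the Tubb2a share of tubulin was 19.8 points higher in APAP and 22.0 points higher in AMSC than in NC, while the differences from NC were -9.30 and -7.43 points for Tuba1c and -1.83 and -0.10 points for Tubb4b. Medians over all genes moved by less than 0.1 under each scaling.

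The replicate block left the called members of APAP against NC at 6 and of AMSC against NC at 3, while Acta2 gained a call in the first. For AMSC, the replicates share only a number with the other groups: the correlations for replicates 2 and 3 were -0.104 and -0.293 with APAP and -0.199 and -0.309 with NC. With this block, which leaves 2 libraries a group and so drops APAP replicate 1 and AMSC replicate 4, 5 members and 335 genes were called in AMSC against APAP. The cause was not tested. Depth limits Vim and Tubb6 most, with 143 and 160 reads in their thinnest libraries.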
